A study of Caenorhabditis elegans with 6 samples.

Results

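The cytosolic ribosomal proteins described here are the products of 59 Caenorhabditis elegans genes, chosen by gene identifier. They comprise the 31 small subunit genes rps-0 to rps-30 and 28 large subunit rpl genes, out of 21951 genes in the deposited count table, of which 14705 had enough reads to be tested. RNA came from whole wild-type animals at the young adult stage, carrying eggs. The 3 control libraries were compared with 3 libraries from exposed animals, which spent 24 h with 100 mM ethyl carbamate (urethane), a carbamate ester found in fermented foods and drinks. No transgene, mutant allele or further agent is named in the labels for either group, and an EV prefix in the sample names is not explained there. The comparison asks which transcripts differ between exposed and unexposed animals.

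The cytosolic ribosome is built from a small subunit, which reads the messenger RNA, and a large subunit, which joins amino acids into protein. Each subunit is made of ribosomal RNA and of many proteins that are needed in about equal numbers, so that their genes are among the most highly transcribed in growing cells. In the worm, the germline and early embryos hold large stores of ribosomes, and the TOR pathway is known to adjust ribosome production to food and stress. The roles given below for single proteins are known mainly from yeast and human ribosomes.

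The transcripts of all 59 ribosomal protein genes were lower in the animals exposed to ethyl carbamate. In each library, the reads on the 59 genes were taken as a share of all gene reads. That share was 7.34%, 7.08% and 6.97% in control replicates 1, 2 and 3, and 5.26%, 4.99% and 4.88% in ethyl carbamate replicates 1, 2 and 3. The shares of the exposed libraries all lay below those of the controls, with a gap several times wider than the spread within either group. The mean fell from 7.13% ± 0.187 (SD, n = 3) to 5.05% ± 0.196 (SD, n = 3), a ratio of 0.708. At the depth of these libraries, 19026133 to 22416213 gene reads in the controls and 20176242 to 21258740 after exposure, the Wilson 95% interval of a single library's share was at most 0.0234 percentage points wide. Such intervals cover counting error only. A share of reads is relative, and it also falls when other transcripts rise. In RNA from whole animals, such a rise, fewer cells of a kind rich in these transcripts and fewer transcripts per cell cannot be told apart.

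**Figure D1:**
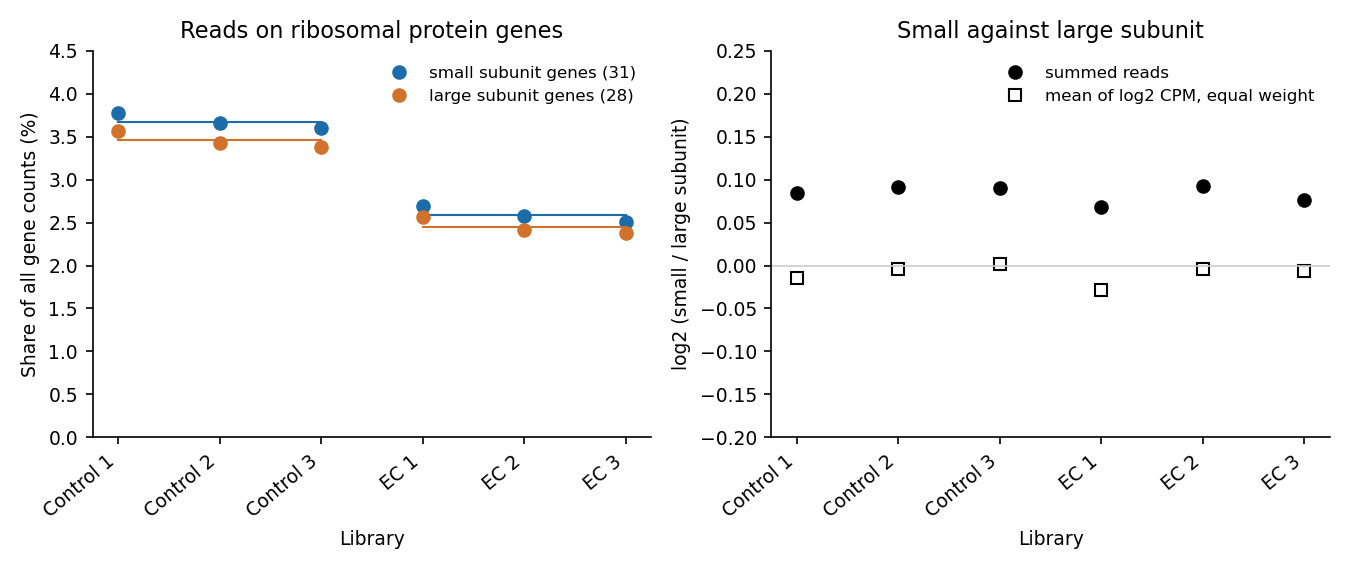
Share of all gene reads, in percent, that fell on the small subunit genes and on the large subunit genes in each of the 6 libraries (EC, ethyl carbamate). The small subunit genes took 3.68% ± 0.0921 (SD, n = 3) in the controls and 2.59% ± 0.0945 after exposure, and the large subunit genes 3.46% ± 0.0953 and 2.45% ± 0.102.

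Tested gene by gene with edgeR's quasi-likelihood test, 59 of 59 ribosomal protein genes were called lower and 0 higher at a Benjamini-Hochberg adjusted p under 0.05. Of all 14705 tested genes, 36.3% were called lower, and 5876 were called higher. The largest adjusted p among the 59 genes in this edgeR fit was 0.000421. All 59 had every exposed library below every control library, an arrangement seen for 37.1% of tested genes. The median log2 fold change of the 59 genes was −0.69, which is 1.62-fold lower, while that of all tested genes was 0.05. The change was moderate for each gene: it ran from −0.83 to −0.37 on the log2 scale, and no gene reached a 2-fold difference. In the authors' deposited table, 59 of the 59 genes were lower at an adjusted p under 0.05, and their median log2 fold change was −0.75. Of all 21951 genes listed there, 24.4% were lower at that threshold. With DESeq2 run again the share called lower was 28.2% of 18968 tested genes.

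The size of the change depended on how the libraries were scaled. With library size only, in place of trimmed-mean scaling, the median of the 59 genes was −0.50 and all 59 were called lower, while the median of all tested genes moved up by 0.19 to 0.24, with 3409 of them called lower and 7215 higher. After the FPKM values (reads scaled for gene length and sequencing depth) were forced to the same distribution in every library by quantile normalization, the median was −0.20. Then 43 of the 59 genes were called lower by limma, against 44.1% of 13917 tested genes, and 16 were not called. Of these 16, rps-4, rps-13, rps-27, rps-29, rpl-2 and rpl-43 had a log2 fold change above 0, and rps-16, rps-28, rps-30, rpl-3, rpl-7, rpl-13, rpl-19, rpl-32, rpl-38 and rpl-39 one below 0. Quantile normalization moved the median of all tested genes to −0.11, with 6132 called lower and 3962 higher, and the 59 genes stood 0.085 below that median on the log2 scale. The 3 control and 3 exposed libraries also differed in markers of cell types. All 20 germline and oocyte markers tested were lower, with summed levels of 18612 to 20096 CPM (reads scaled to a common library size) in the controls and 13880 to 14099 CPM after exposure. Of 14 neuronal markers 13 were higher and 0 lower, with summed levels of 544 to 565 CPM and 790 to 832 CPM. Markers of body wall muscle (8 of 10 higher, 0 lower) and intestine (7 of 9 higher, 1 lower) also stood higher, and those of the epidermis were divided, with 5 of 9 higher and 3 lower. For comparison, 36.3% of all 14705 tested genes were called lower and 5876 of them higher. Among 713 other genes about as abundant as the ribosomal protein genes, 82.7% were called lower. The marker lists were not matched for abundance. No marker on these lists was at 0 reads in all 6 libraries. Their part in the lower ribosomal protein transcripts was not tested.

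The medians of the small and large subunit genes lay close together. The median log2 fold change was −0.70 for the 31 small subunit genes and −0.69 for the 28 large subunit genes. Reads on small subunit genes outnumbered those on large subunit genes by 1.06, 1.07 and 1.06 times in control replicates 1, 2 and 3, and by 1.05, 1.07 and 1.05 times in ethyl carbamate replicates 1, 2 and 3. These ratios overlapped between the groups. By interquartile range the large subunit genes lay closer together than the small subunit genes, at 0.0472 against 0.121 on the log2 scale. The SD over genes differed less, at 0.0722 against 0.0953, and the extremes spanned −0.83 to −0.49 and −0.83 to −0.37.

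**Figure D2:**
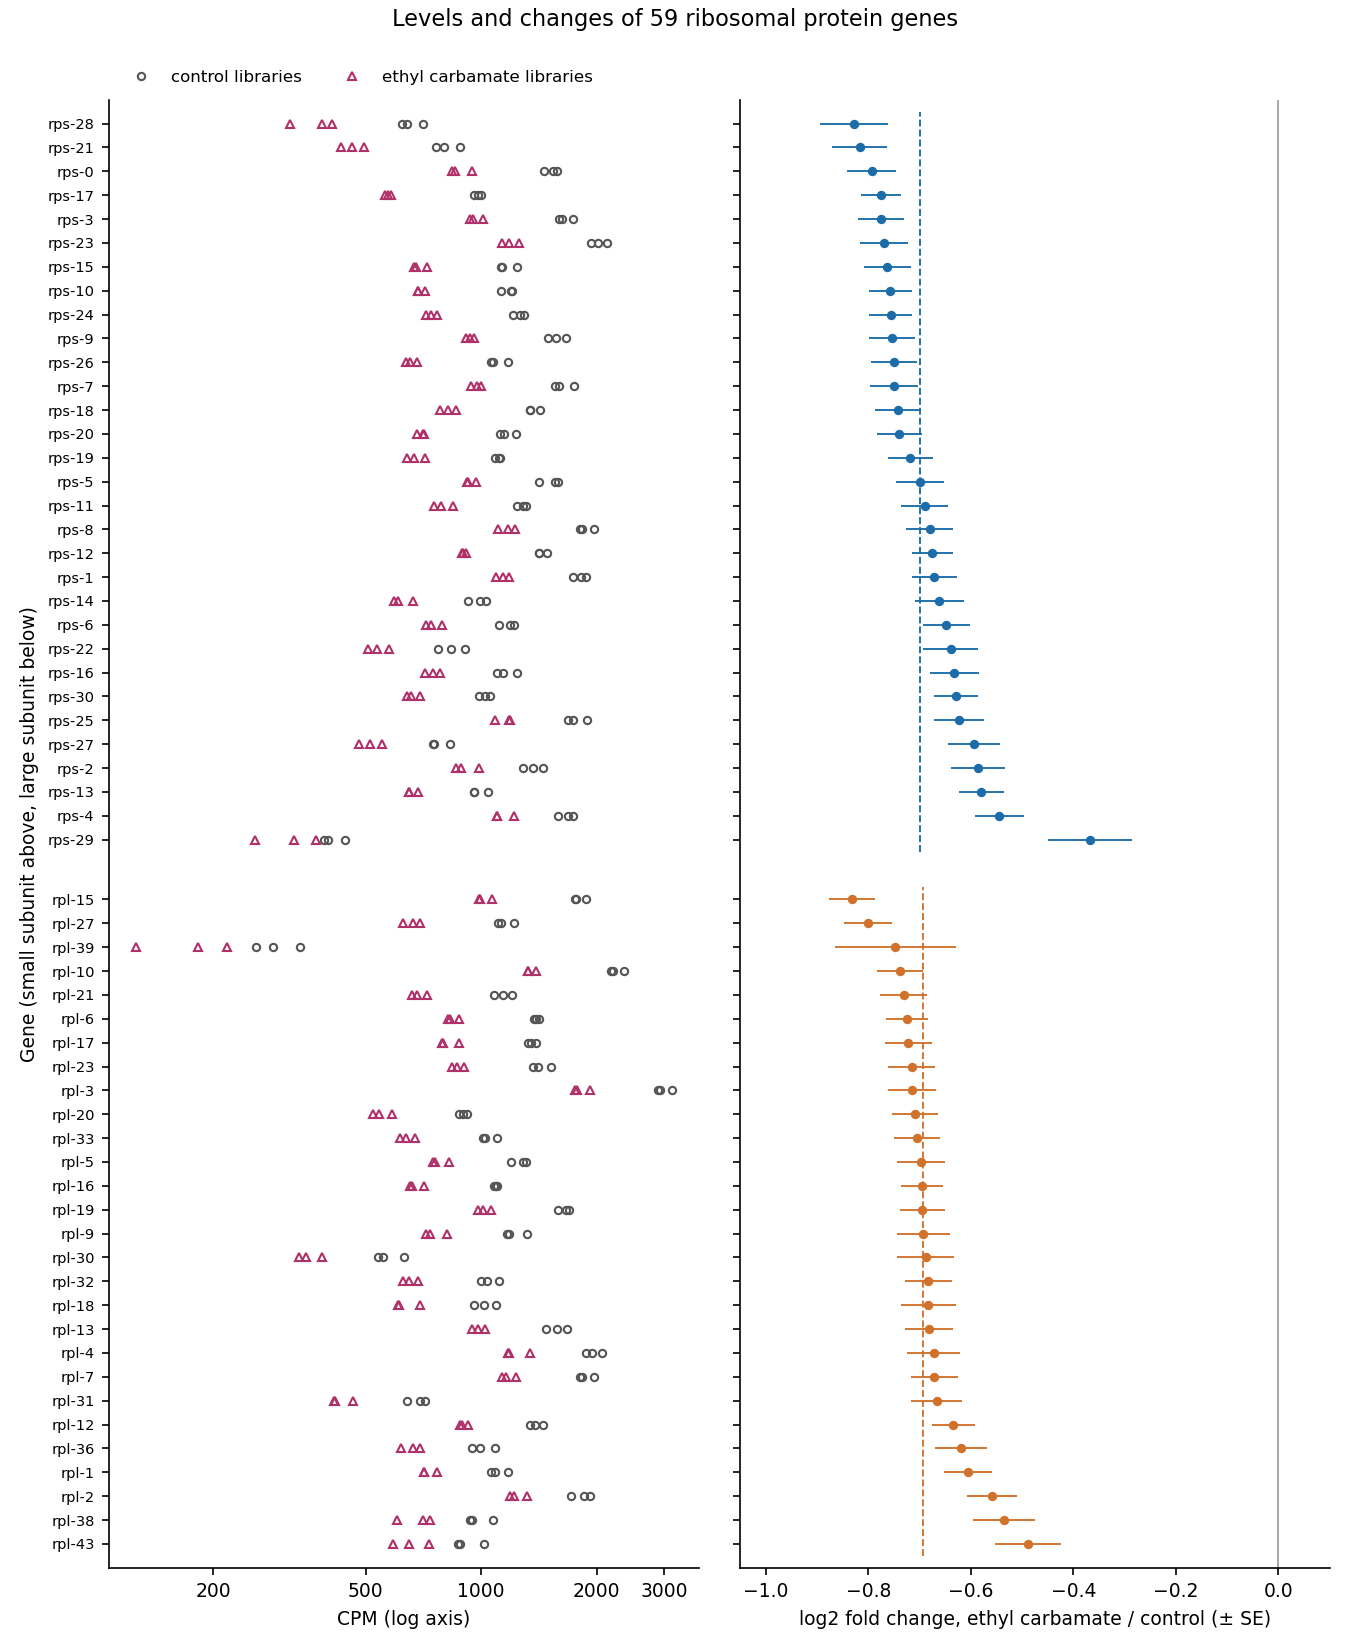
Left, the level of each ribosomal protein gene in every library, in CPM on a log axis, with control libraries as circles and ethyl carbamate libraries as triangles. Right, the log2 fold change of each gene with a standard error derived from the edgeR F statistic, and dashed lines at the subunit medians of −0.70 and −0.69. Every gene lies left of 0, from −0.83 for rpl-15 to −0.37 for rps-29.

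Among small subunit genes, those lining the path of the messenger RNA included the largest change of the subunit. RPS-28, which sits near the mRNA exit, is encoded by rps-28 (Y41D4B.5, chromosome IV, 1659685 to 1660011). Its level was 706, 622 and 642 CPM in the control libraries and 409, 384 and 317 CPM in the ethyl carbamate libraries. The exposed libraries all lay below the controls, and edgeR gave a log2 fold change of −0.83 (SE 0.066, adjusted p = 4.4e-10). The other genes of the exit site, rps-26 at −0.75 and rps-14 at −0.66, were also lower. The protein RPS-0 (the worm counterpart of human RPSA) lies beside the exit on the back of the subunit. Its gene rps-0 (B0393.1, chromosome III, 4752899 to 4754083) was at 1580, 1539 and 1458 CPM in the controls and at 944, 840 and 857 CPM after exposure, 1.73-fold lower. At the mRNA entry, rps-3 was lower by −0.77, rps-30 by −0.63 and rps-2 by −0.59 on the log2 scale. Of these, rps-2 (C49H3.11, chromosome IV, 7925348 to 7926385) had one of the smaller changes of its subunit. It was at 1450, 1367 and 1285 CPM in the controls and 985, 886 and 861 CPM after exposure, and these ranges did not overlap. RPS-23 lies in the decoding centre, and rps-23 was lower by −0.77. The gene of RPS-6, the best known substrate of S6 kinase, was lower by −0.65.

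Together with rps-28 and rps-0, the genes rps-21 and rps-17 had the 4 largest changes of the small subunit. The gene rps-21 (F37C12.11, chromosome III, 7189141 to 7189638), whose protein contacts RPS-0 in the ribosome, was at 881, 798 and 764 CPM in the controls and at 496, 461 and 431 CPM after exposure. The gene rps-17 (T08B2.10, chromosome I, 6220090 to 6220766), which encodes a protein of the subunit's head, was at 998, 958 and 980 CPM in the controls and at 581, 570 and 563 CPM after exposure. For both, the gap between the groups was wider than the spread within them, more clearly so for rps-17. The log2 fold changes were −0.82 for rps-21 and −0.78 for rps-17.

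The smallest change of all 59 genes was that of rps-29 (B0412.4, chromosome III, 794294 to 795059), which encodes a short zinc-binding protein of the head. It was at 443, 398 and 389 CPM in the controls and at 372, 325 and 257 CPM after exposure. The groups did not overlap, but the highest exposed library lay close to the lowest control. The log2 fold change in edgeR was −0.37 (SE 0.082, adjusted p = 0.000421), and without ethyl carbamate replicate 3, the lowest library, it was −0.24. With library size only the change of rps-29 was −0.18 (edgeR adjusted p = 0.0489), and quantile normalization turned it to 0.071. The genes rps-4 (Y43B11AR.4, chromosome IV, 7083694 to 7084682) and rps-13 (C16A3.9, chromosome III, 6374094 to 6375003), both coding for proteins of the subunit's body, had the next smallest changes within the small subunit, with log2 fold changes of −0.54 and −0.58. Under quantile normalization both stood slightly above 0, at 0.065 and 0.015. On the main scale rps-4 was at 1732, 1681 and 1583 CPM in the controls and at 1220, 1103 and 1103 CPM after exposure, without overlap. On the same scale rps-13 was at 1045, 960 and 960 CPM in the controls and at 686, 650 and 647 CPM after exposure.

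Among large subunit genes, rpl-15 (K11H12.2, chromosome IV, 653438 to 654582) had the largest change. Its protein is buried in the large subunit's ribosomal RNA. Its level was 1880, 1762 and 1773 CPM in the controls and 1065, 986 and 991 CPM after exposure, so the groups were well apart. In edgeR the log2 fold change was −0.83 (SE 0.044, adjusted p = 5.6e-13), or 1.78-fold lower. The gene rpl-27 (C53H9.1, chromosome I, 1834881 to 1835439) was at 1219, 1107 and 1128 CPM in the controls and at 666, 691 and 627 CPM after exposure, with a log2 fold change of −0.80. Several proteins of the large subunit lie near the peptidyl transferase centre, where peptide bonds are made. RPL-10, which reaches towards the centre and joins the subunit late in its assembly, is encoded by rpl-10 (F10B5.1, chromosome II, 8143863 to 8144673). The rpl-10 transcript was at 2366, 2205 and 2178 CPM in the controls and at 1392, 1325 and 1328 CPM after exposure, and was lower by −0.74. RPL-3, whose extension also reaches the centre, had a log2 fold change of −0.71 in rpl-3, which was −0.071 and not called on quantile-normalized FPKM (limma adjusted p = 0.0979). RPL-2 lies next to the centre as well, and rpl-2 (B0250.1, chromosome V, 20479687 to 20480846) had one of the smallest changes, −0.56, with 1929, 1853 and 1711 CPM in the controls and 1320, 1220 and 1189 CPM after exposure. On quantile-normalized FPKM rpl-2 stood at 0.072.

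Genes whose proteins line or surround the tunnel through which the new protein leaves the ribosome were lower by −0.75 for rpl-39, −0.72 for rpl-17, −0.69 for rpl-19, −0.67 for rpl-31 and −0.67 for rpl-4. The first of these, rpl-39 (C26F1.9, chromosome V, 7775738 to 7776086), encodes one of the shortest ribosomal proteins and had the least precise value. It was at 337, 287 and 259 CPM in the controls and at 217, 183 and 126 CPM after exposure. The groups did not overlap, but each spread widely. Leaving out 1 library at a time moved its log2 fold change between −0.93 and −0.56. An opposite-strand gene, grl-10, held reads equal to up to 15.3% of those of rpl-39, and the strand setting of the counting was not given, so reads of the overlapping stretch cannot be assigned. For rpl-32 and chmp-7 the corresponding figure was 13.4%. For the other 5 members with an opposite-strand neighbour it was at most 1.63%.

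The genes of proteins that stand out from the subunit's body were lower as well. RPL-5 binds the 5S ribosomal RNA, and rpl-5 had a log2 fold change of −0.70. RPL-12 forms the base of the stalk that recruits elongation factors, and rpl-12 had a log2 fold change of −0.63. RPL-1 forms the mobile stalk through which the spent transfer RNA leaves, and rpl-1 (Y71F9AL.13, chromosome I, 2875395 to 2876286) was at 1177, 1087 and 1064 CPM in the controls and at 767, 710 and 709 CPM after exposure. At −0.61, rpl-1 was among the 4 large subunit genes with the smallest changes. The other 2 beside rpl-2 and rpl-1 were rpl-43 and rpl-38. The gene rpl-43 (Y48B6A.2, chromosome II, 14155278 to 14155686), which encodes a small zinc-binding protein, was at 1015, 878 and 869 CPM in the controls and at 731, 648 and 590 CPM after exposure. Its log2 fold change of −0.49 was the smallest of its subunit, and stood at 0.11 on the log2 scale after quantile normalization. The gene rpl-38 (C06B8.8, chromosome V, 15512166 to 15512773) was at 1073, 948 and 938 CPM in the controls and at 734, 703 and 604 CPM after exposure, 1.45-fold lower. Mouse Rpl38 is known for a role in translating Hox messenger RNAs.

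The 59 genes were among the most abundant transcripts in both groups. On the FPKM scale, which divides by gene length and so allows genes to be compared, their control means ran from 1091 to 3949 with a median of 2110. After exposure they ran from 665 to 2471 with a median of 1262. Of the 100 genes with the highest FPKM in the controls 51 were among these 59, and 42 of the top 100 after exposure. The most abundant were rps-25, at 3949 ± 264 FPKM (SD, n = 3) in the controls and 2471 ± 126 FPKM (SD, n = 3) after exposure, and rps-23, at 3889 ± 223 FPKM and 2199 ± 118 FPKM. These levels differed by less than their spread in the controls. In the large subunit rpl-10, at 3206 ± 171 FPKM, and rpl-38, at 3001 ± 253 FPKM, led in the controls, and after exposure they were at 1852 ± 59.5 FPKM and 1995 ± 203 FPKM. The lowest of the small subunit were rps-22, which fell from 1091 ± 98.2 FPKM to 675 ± 45.5 FPKM, and rps-14, which fell from 1220 ± 75.0 FPKM to 744 ± 47.4 FPKM. In the large subunit rpl-31 fell from 1095 ± 67.6 FPKM to 665 ± 46.7 FPKM, and rpl-30 from 1119 ± 105 FPKM to 669 ± 51.4 FPKM. The order of the 59 levels was much the same in both groups, with a Spearman correlation of 0.959 across genes, which share the libraries. The span from the highest to the lowest was 3.62-fold in the controls and 3.72-fold after exposure.

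The members were also set against genes of like abundance, in bins of 1 log2 unit of control CPM, since 713 other tested genes shared the 4 bins that hold them. Most abundant genes were lower too: 590 of these 713 genes, or 82.7%, were called lower and 72 higher, with a median log2 fold change of −0.42. Between 10 and 11 log2 CPM, 40 ribosomal protein genes had a median of −0.70 and 49 other genes a median of −0.55. In this bin, which holds most members, 45 of the 49 others, or 91.8%, were called lower. Between 9 and 10, the 15 members stood at −0.66 and 166 others at −0.45. Between 8 and 9, the 2 members stood at −0.56 and 478 others at −0.39, and between 11 and 12 the 2 members at −0.73 and 20 others at −0.60. The others called lower made up 82.0% between 8 and 9, 81.3% between 9 and 10 and 90.0% between 11 and 12. In all 4 bins the members lay lower, and 57 of the 59 were below the median of the other genes in their bin, by a median of 0.17 on the log2 scale. This order depended on the scaling: after quantile normalization the members stood 0.061 above the other genes of their bins. Of the 713 genes, 59 others serve translation, and with those left out, a choice made after seeing the data, the median difference was −0.25.

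The changes of the 59 genes lay closer together than those of other abundant genes. The interquartile range of their log2 fold changes was 0.101, against 0.46 for the 713 other genes in the same bins and 1.28 for all tested genes. In the bin of 10 to 11 log2 CPM it was 0.0771 for the 40 members and 0.467 for the 49 others. In all, 54 of the 59 genes lay between −0.8 and −0.5 on the log2 scale, where 9.02% of all tested genes lay. Those bounds surround the median of the members themselves, so a high count of members follows in part from the choice of bounds. The median standard error of one member's log2 fold change was 0.0463, beside a spread over the 59 genes of 0.0845 (SD). That error includes shifts between libraries that the 59 genes share, so it is not the error of a difference between members. These comparisons of spread are descriptions without a test, on the main scale only. After quantile normalization the log2 fold changes of the 59 genes ran from −0.46 to 0.11. The spread of the other genes on that scale is not given here.

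**Figure D3:**
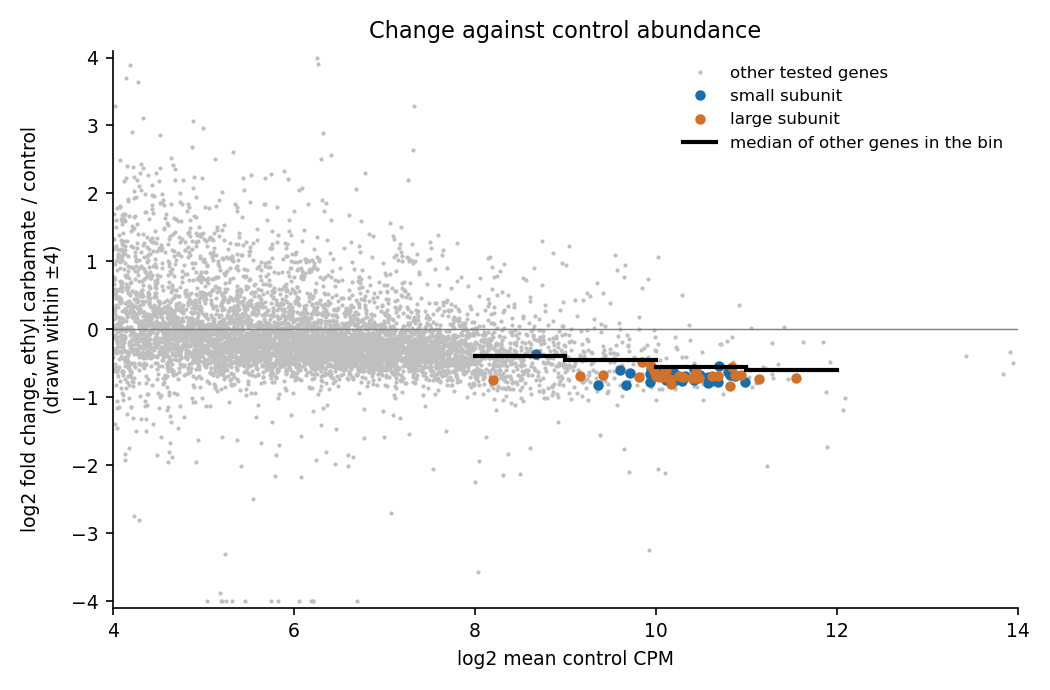
Log2 fold change (ethyl carbamate over control, edgeR) of tested genes against their control level in log2 CPM, with the ribosomal protein genes marked by subunit. The 59 genes form a compact band around −0.69 at the high end of the abundance range, while 713 other genes of the same bins had a median of −0.42 and an interquartile range of 0.46.

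The loci were compared by chromosome, coding length, exon number and nearness to other members, and their sequences were not examined. The members lie on all 5 autosomes, with 17 on chromosome I, 6 on II, 16 on III, 14 on IV and 6 on V, and none of the 59 on the X chromosome. Their median log2 fold change was −0.72 on chromosome I, −0.70 on II, −0.69 on III, −0.69 on IV and −0.61 on V. The encoded proteins have 51 to 401 residues, and 58 of the genes have 2 to 5 exons while rpl-43 has 1. Of the 59 genes, 5 lie within 10 kb of another member. On chromosome III, rps-14, rpl-36 and rps-21 are neighbours, with log2 fold changes of −0.66, −0.62 and −0.82. On chromosome V, rps-30 (C26F1.4, 7776576 to 7777216), whose protein is made as a fusion with a ubiquitin-like peptide, lies beside rpl-39, with log2 fold changes of −0.63 and −0.75.

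The remaining genes named as cytosolic ribosomal proteins, which are outside the 59, included the only ones that rose. Of 26 tested, 23 were lower and 3 higher, and their median log2 fold change was −0.67. The lowest of them was rpl-14 at −0.88. The 3 that rose were rpl-11.2, rpl-25.1 and rpl-24.2, the last of which is named rsl-24D1 in RefSeq after a ribosome assembly factor. The worm has 2 genes each for the proteins RPL-11, a partner of RPL-5 at the 5S ribosomal RNA, and RPL-25, a protein at the tunnel exit. The gene rpl-11.1 (T22F3.4, chromosome V, 3585315 to 3586064) was at 2332, 2139 and 2118 FPKM in the controls and at 1204, 1168 and 1144 FPKM after exposure, 1.81-fold lower. Its copy rpl-11.2 (F07D10.1, chromosome X, 2241760 to 2242620) was at 391, 428 and 368 FPKM in the controls and at 502, 438 and 452 FPKM after exposure. The exposed libraries were thus all lower for rpl-11.1 and all higher for rpl-11.2, where edgeR gave a log2 fold change of 0.28 (SE 0.053, adjusted p = 5.92e-05). The share of rpl-11.2 in the summed FPKM of the pair was 14.4%, 16.7% and 14.8% in the controls and 29.4%, 27.3% and 28.3% after exposure.

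The RPL-25 pair moved in the same way. The gene rpl-25.2 (F52B5.6, chromosome I, 8329067 to 8329684) was at 1634, 1453 and 1525 FPKM in the controls and at 911, 810 and 789 FPKM after exposure, 1.77-fold lower. Its copy rpl-25.1 (F55D10.2, chromosome X, 4715176 to 4715801) was at 231, 236 and 206 FPKM in the controls and at 309, 291 and 279 FPKM after exposure, with a log2 fold change of 0.44 (SE 0.048, adjusted p = 4.57e-08) in edgeR. In both pairs the less abundant copy lies on the X chromosome, and it was the one that rose. Both X-linked copies stayed above 0 under every scaling tried, at 0.22 or more for rpl-11.2 and 0.38 or more for rpl-25.1. Reads that match both copies of a pair could have been divided between them in the counting, so their levels are uncertain to that extent.

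**Figure D4:**
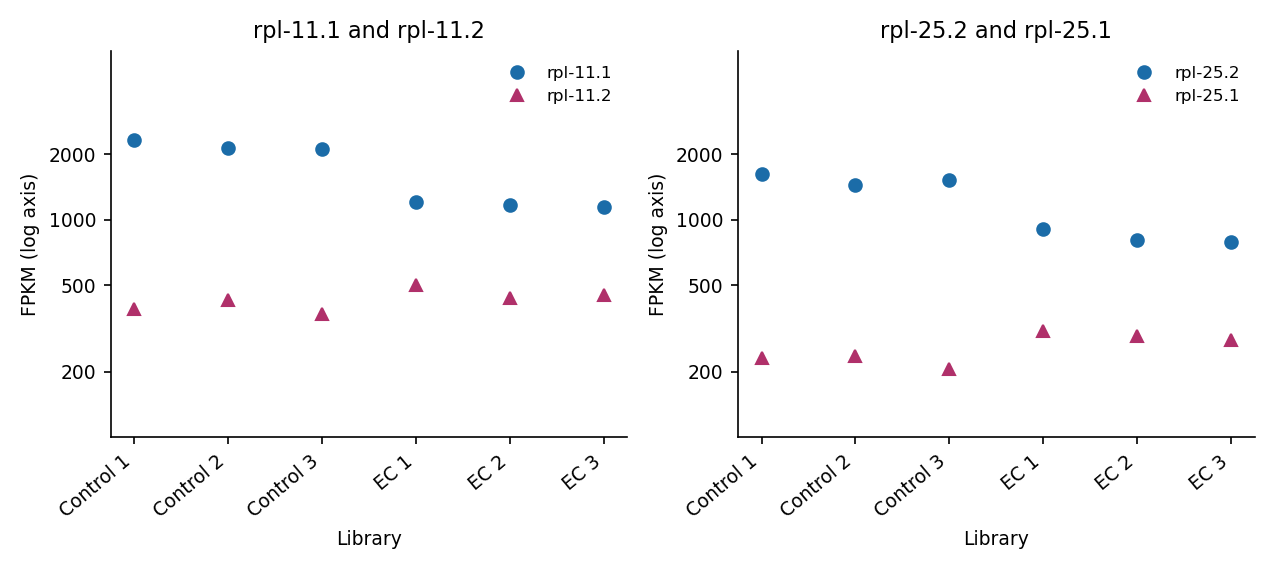
FPKM per library, on a log axis, of the paired genes rpl-11.1 and rpl-11.2 (left) and rpl-25.2 and rpl-25.1 (right) in control and ethyl carbamate (EC) libraries. The abundant copies fell, rpl-11.1 from 2118 or more to 1204 or less, while the X-linked copies rpl-11.2 and rpl-25.1 rose.

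Most other genes of translation were also called lower. For these lists and those below, the share called lower over all 14705 tested genes was 36.3%. Among the 713 other genes in the abundance bins of the members, which include 59 translation genes, it was 82.7%. In the bin of 10 to 11 log2 CPM, which holds most members, it was 91.8% of the other genes. The lists were not matched for abundance. Of 28 initiation factor genes tested, 25 were lower, 2 higher and 1 not called, with a median log2 fold change of −0.58. Among them ife-3, an mRNA cap-binding eIF4E, was lower by −0.80. The poly(A)-binding protein gene pab-1 was lower by −0.55, while its less abundant relative pab-2 rose by 0.76 on the log2 scale, from 84.9 ± 3.15 CPM to 144 ± 2.07 CPM (SD, n = 3 each). The other initiation gene that rose was ife-4, from 12.6 ± 0.439 CPM to 20.7 ± 0.241 CPM. All 19 aminoacyl-tRNA synthetase genes tested were lower, with a median of −0.66, led by the lysyl-tRNA synthetase gene kars-1 at 2.03-fold lower. The 11 factors that associate with the ribosome were all lower, with a median of −0.58, among them abcf-1 at −0.86, the nascent chain binding gene icd-1 at −0.84 and rack-1 at −0.73.

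Of the 9 elongation factor genes, 7 were lower and 2 higher, with a median of −0.47. The gene iff-1, the eIF5A form known from the germline, fell 2.06-fold, from 1024 ± 42.2 CPM to 497 ± 13.5 CPM (SD, n = 3 each). Its relative iff-2, known from somatic cells, rose 1.49-fold, from 149 ± 7.42 CPM to 223 ± 7.97 CPM. The pair of eEF1A genes was also divided: eef-1A.2 rose 2.46-fold, and eef-1A.1, the more abundant copy, was lower by −0.40. That change of eef-1A.1 was 0.00 after quantile normalization. Here too, reads that match both copies could have been divided between them in the counting, so both levels are uncertain to that extent. The genes pab-1, ife-4, iff-2 and eef-1A.1 are named here after their values were seen.

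Other parts of the protein-making machinery had medians nearer to 0. Of 70 mitochondrial ribosomal protein genes, 51 were lower, 1 higher and 18 not called, with a median of −0.23; the lowest were mrps-25 at −0.67 and mrpl-44 at −0.64. Of 37 genes of ribosome assembly and RNA polymerase I, 15 were lower, 10 higher and 12 not called. That count called lower is near the 36.3% of all tested genes. The median of these assembly genes was −0.06, and became 0.13 with library size only. The helicase genes ruvb-2 and ruvb-1 were lower by −0.61 and −0.56. The gene rpoa-1, the largest RNA polymerase I subunit, was at 0.43, and at 0.00 after quantile normalization. Of 19 genes of the TOR pathway, 12 were lower, 4 higher and 3 not called, with a median of −0.18 that became 0.01 with library size only. The members with the largest changes there were the transcription factor genes pha-4 and hlh-30, which rose by 1.29 and 0.88 on the log2 scale. The S6 kinase gene rsks-1 was lower by −0.20, but stood at 0.01 after quantile normalization.

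The order of these medians depended on the scaling. After quantile normalization the median of the 59 ribosomal protein genes, −0.20, stood nearer to 0 than those of the tRNA synthetases at −0.50, the initiation factors at −0.40, the ribosome-associated factors at −0.30 and the germline markers at −0.29. The elongation factors at −0.11 and the mitochondrial ribosomal proteins at −0.10 stood nearer to 0 still. With library size only, the 59 genes were at −0.50 and the tRNA synthetases at −0.47.

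**Figure D5:**
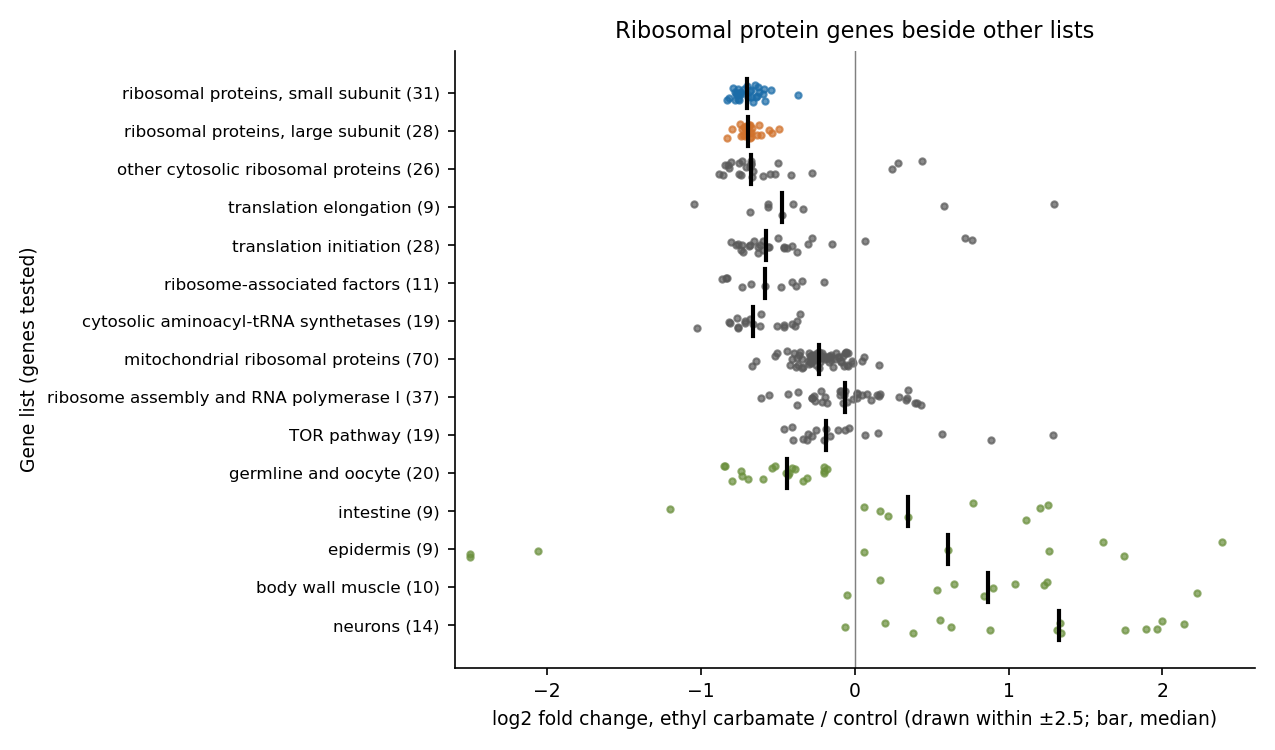
Median and spread of the log2 fold change (ethyl carbamate over control, edgeR) in the cytosolic ribosomal protein genes, the other translation gene lists and the cell type marker lists. On this scale the ribosomal protein genes lie at −0.69, the tRNA synthetases at −0.66, the mitochondrial ribosomal proteins at −0.23 and the assembly genes at −0.06; after quantile normalization the same medians were −0.20, −0.50, −0.10 and −0.06.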

How the data were processed

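The 6 poly(A) RNA libraries, read as pairs of 150 bases, were grouped by their treatment label. The submitters' processing notes name DESeq2 1.20.0, StringTie 1.3.3, featureCounts 1.5.0-p3 and HISAT2 2.0.5. Not given in the sources used here are the build, the strand setting and the handling of multiply matching reads. Per the file headers, raw read counts were deposited for 21951 genes. Beside them the authors deposited normalized counts, a signal equal to counts over 1 size factor per library (0.818 to 1.12), FPKM, log2 fold changes and p-values. Per the file headers, a second deposited table holds FPKM for 46589 genes.

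The main test was edgeR 4.0.16, run under R 4.3.3 (TMM scaling, filterByExpr, quasi-likelihood F test, 2-sided, Benjamini-Hochberg over 14705 genes, threshold 0.05) over all 6 libraries. The standard errors (SE) were not given by edgeR. Each was derived as the absolute log2 fold change divided by the square root of the F statistic. That statistic uses variance partly pooled over genes, so the SE can be too small for genes that scatter widely. CPM were computed from counts on TMM-scaled library sizes. Alternatives are given in the closing section; limma 3.58.1 ran on log2(FPKM + 0.5) for genes that reached an FPKM of 1 in 3 libraries, a scale that understates changes of low genes. The replicates are biological per the series' design text. The scripts were tested on simulated data. Coordinates are those of the deposited table, and 53 of 59 members lie within 200 bases of the WBcel235 annotation (Ensembl 115) at both ends. Names are the classical worm symbols; 11 members have another symbol in RefSeq. Of the listed factor and marker genes, those that matched no identifier were left out: 2 for initiation, 10 for assembly, 1 synthetase and 1 intestinal marker. The members, lists and tests were chosen with earlier results of these data known. Named in full were the 4 largest and 4 smallest changes and the 2 highest and 2 lowest control FPKM of each subunit. Members within 10 kb of another were also named, with up to 2 called genes of the largest change in each other list. So was each other ribosomal protein gene that rose, of which rpl-24.2 was given by name only. To the list of other ribosomal proteins, 3 genes were added by gene name. Figures were drawn with matplotlib 3.10.9.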

Additional observations from a re-analysis of the deposited data

How the results depend on the processing

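At an adjusted p under 0.05, all 59 genes were called lower with median-ratio scaling, DESeq2, no filter, library size only, and with each library left out. In the main fit all 59 also passed a threshold of 0.01. That did not hold under every setting: the adjusted p of rps-29 was 0.019 with DESeq2 and 0.0489 in edgeR with library size only. Leaving out 1 library moved the medians between −0.74 and −0.67 for the 59 genes, −0.74 and −0.68 for the small and −0.74 and −0.65 for the large subunit. Quantile normalization of FPKM gave 43 calls. The medians of all members, small and large subunit were −0.59, −0.59 and −0.59 for genes of FPKM 5 or more, −0.50, −0.51 and −0.50 with library size only, and −0.20, −0.17 and −0.20 after quantile normalization. Relative to the median of all tested genes, members stood at −0.92 with DESeq2 and with no filter, −0.58 at FPKM 5 or more and −0.085 after quantile normalization. Against genes of like abundance, the difference reversed to 0.061 after quantile normalization and was −0.25 without translation genes. On that normalization rps-29 (0.071), rps-4 (0.065), rps-13 (0.015), rpl-43 (0.11), rpl-2 (0.072) and rps-27 (0.022) changed sign and were not called, and the other 10 members not called kept a negative sign. The cause was not tested. With the replicate number as a block, 59 genes were lower and the median was −0.69; the numbers do not show a pairing (correlations of 0.00878, 0.00333 and 0.00178, with 1 of 3 numbers best matched to itself). With 3 libraries a group, the standard error of one member's log2 fold change was near 0.0463. It includes shifts between libraries that the 59 genes share. The error of a difference between members was not computed.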

Other observations

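The 59 genes shifted together from library to library within each group. Of the 59, 56 were highest in control replicate 1 among the controls and 58 in ethyl carbamate replicate 1 among the exposed libraries. The lowest control value was in replicate 3 for 47 genes and in replicate 2 for 12, and the lowest exposed value was in replicate 3 for 45 and in replicate 2 for 14. Their median deviation from the group mean ran from −0.06 to 0.08 on the log2 scale in the controls and from −0.05 to 0.07 after exposure, which is small beside the change of −0.69.

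Short genes varied more between libraries. The 7 members with a gene length of 400 bases or less, among them rpl-39, rps-28 and rpl-36, had a median within-group SD of 0.129 on the log2 scale, and the 52 longer members 0.0691. The median log2 fold change was −0.62 for the short and −0.69 for the longer members, whose ranges overlap. Across the 59 genes, log2 gene length had a Pearson correlation of −0.548 with the within-group SD and a weaker Spearman correlation of −0.246. With the log2 fold change the Pearson value was −0.0956 and the Spearman value 0.0556, which differ in sign. The genes share all 6 libraries, so these are descriptions.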
